A study of Homo sapiens with 5 samples.

Results

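Dense SMAD2 domains are described here as stretches of 100 kb that hold many SMAD2 summits in every library. Summits are the single-base positions at which the authors' peak caller placed the top of each peak. The autosomes were cut into fixed 100-kb bins on hg19, starting at the first base of each chromosome. A bin was chosen by its summit counts: it had to hold 12 or more summits in each of the 4 lists. The rule was met by 627 of the 17873 bins with a summit (3.51%), which together cover 62.7 Mb. Dense bins held 11603 and 12287 summits in the activin libraries, out of 50440 and 53069. In the palbociclib libraries they held 13102 and 14228, out of 61533 and 63761. Because the counts made the choice, the high counts themselves are a description and no finding.

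The cells were T47D, a human breast cancer line of the luminal, estrogen receptor-positive type, and all 4 libraries came from cells given activin A at 50 ng/ml for 1.5 h. The activin group (2 libraries) received nothing else, and the palbociclib group (2 libraries) was first given palbociclib at 1 µM for 24 h. The series also holds an untreated input library, and its signal was not used here. No SMAD2 library without activin was analysed, so nothing below shows what activin itself changes. The files hold no expression values, so the identity of the line could not be checked from them. Read depth is unknown, and the labels do not say whether replicates were separate cultures, so their spread may be technical.

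Activin A is a ligand of the TGF-β family whose receptors phosphorylate SMAD2 and SMAD3. The phosphorylated proteins join SMAD4, enter the nucleus and act on chromatin together with partner transcription factors, which in luminal breast cells include lineage factors. Clusters of binding sites for many factors are known at strong enhancers and in gene-rich, active chromatin. Palbociclib inhibits CDK4 and CDK6, the kinases that release cells from G1.

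The description turns on 3 loci, and 1 promoter of each is shown so that its sequence can be seen. They belong to MIRLET7BHG, the host transcript of let-7a-3 and let-7b in the densest bin, to PRLR, the prolactin receptor gene in the bin with the highest palbociclib to activin ratio, and to GATA3, a defining luminal transcription factor in the bin with the lowest ratio. The sequences are the first entry of each gene in a RefSeq table on GRCh38.p14, from 250 bases before to 50 after a listed transcript start, on the + strand for MIRLET7BHG and GATA3 and on the - strand for PRLR. Capitals mark CAGAC, the SMAD box, and GGCGCC, a GC-rich SMAD sequence, searched on both strands.
MIRLET7BHG: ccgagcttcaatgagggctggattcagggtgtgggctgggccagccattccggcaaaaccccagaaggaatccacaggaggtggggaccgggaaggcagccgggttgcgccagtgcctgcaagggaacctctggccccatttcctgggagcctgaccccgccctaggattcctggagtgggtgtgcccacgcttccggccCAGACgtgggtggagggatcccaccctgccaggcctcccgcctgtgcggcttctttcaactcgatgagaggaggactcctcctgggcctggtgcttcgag
PRLR: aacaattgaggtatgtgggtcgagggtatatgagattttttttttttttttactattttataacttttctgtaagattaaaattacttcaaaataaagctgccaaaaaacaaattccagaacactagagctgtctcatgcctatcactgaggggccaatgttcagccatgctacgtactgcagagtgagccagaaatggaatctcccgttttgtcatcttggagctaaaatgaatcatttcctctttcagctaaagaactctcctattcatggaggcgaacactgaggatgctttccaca
GATA3: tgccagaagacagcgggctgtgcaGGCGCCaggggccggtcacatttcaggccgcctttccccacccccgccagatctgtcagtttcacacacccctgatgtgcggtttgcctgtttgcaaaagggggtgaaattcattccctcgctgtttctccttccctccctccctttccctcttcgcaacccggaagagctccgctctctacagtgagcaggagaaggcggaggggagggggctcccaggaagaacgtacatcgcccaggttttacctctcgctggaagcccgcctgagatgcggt

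The MIRLET7BHG window had 1 CAGAC match, the GATA3 window had 1 GGCGCC match, and the PRLR window had neither. Of all 35116 promoters in the table, 45.3% held CAGAC and 19.2% held GGCGCC on either strand. The G and C content of the 3 windows was 65.3%, 38% and 60.7% in the order shown, against a median of 58.7% over all promoters. A match is a run of letters and not a shown binding site. The table lists 1 promoter for MIRLET7BHG, 2 for PRLR and 6 for GATA3, and only the first of each is shown. The windows are on another build than the summits, so where they lie relative to a summit was not determined. Whether they fall inside the named bins was not determined either. Sequence under the summits themselves was not analysed here.

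Dense bins were unevenly spread over the chromosomes. Chromosome 17 held 80 of them, or 12.7% of its 632 bins with a summit. Chromosome 19 held 59 (12.5%), chromosome 16 held 45 (9.09%), chromosome 22 held 19 (7.42%) and chromosome 11 held 56 of 934 bins. Chromosome 1 held 59, but its 3.68% was near the 3.51% of all bins. Chromosomes 13 and 18 held 1 each, or 0.174% and 0.253% of their bins, and every autosome held at least 1. On chromosome 17, dense bins took 44.5% ± 0.1 of all activin summits and 42.3% ± 0.3 of all palbociclib summits (SD, n = 2 each). On chromosome 13 those shares were 2.15% ± 0.14 and 1.94% ± 0.11. Of the dense bins, 168 (26.8%) lay within 5 Mb of the first or last summit of their chromosome, against 8.35% of all bins with a summit.

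Many dense bins touched another. Of the 627 bins, 264 (42.1%) belonged to 105 runs of 2 or more neighbouring dense bins, and 363 stood alone. Genes are named below from general knowledge of the hg19 map, because no annotation on that build was used, and whether a summit lies in an exon, an intron or a promoter was not determined. The longest runs had 6 bins each, and there were 4 of them. The run on chromosome 1 from 0.8 to 1.4 Mb holds AGRN and DVL1, and counted 135 and 143 activin summits and 167 and 174 palbociclib summits. The run on chromosome 9 from 139.6 to 140.2 Mb holds TUBB4B, a β-tubulin gene, and counted 178 and 179 against 194 and 203. The run on chromosome 8 from 144.6 to 145.2 Mb holds PLEC, which encodes the cytoskeletal linker plectin, and counted 135 and 138 against 161 and 177. The run on chromosome 17 from 38.2 to 38.8 Mb holds RARA, the retinoic acid receptor α gene, and IGFBP4, and counted 117 and 122 against 126 and 131. In all 4 runs both palbociclib libraries lay above both activin libraries, as their longer lists also do.

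The 12 densest bins were taken by the lowest of their 4 counts. The first lay on chromosome 22 from 46.4 to 46.5 Mb at MIRLET7BHG, with 51 and 44 activin summits and 50 and 57 palbociclib summits, so the treatments overlapped. Next came the bin on chromosome 9 from 140.1 to 140.2 Mb at TUBB4B, with 44 and 41 against 41 and 44, the same mean in both treatments. On chromosome 11 from 0.8 to 0.9 Mb, around the ribosomal protein gene RPLP2 and the tetraspanin gene CD151, there were 41 and 39 against 46 and 46. In the chromosome 9 bin the treatments overlapped as well, and in the chromosome 11 bin both palbociclib counts lay above both activin counts. Replicates differed by up to 7 summits in the bins at MIRLET7BHG, TUBB4B and RPLP2. The activin replicates lay further apart in the GRIN1 bin, also among the 12 densest, at 37 and 49 summits.

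Chromosome 10 from 6.2 to 6.3 Mb holds PFKFB3, an activator of glycolysis, and had 38 and 37 activin summits against 55 and 53 palbociclib summits. Among the 12 densest it was the single bin whose share of the list was also higher in both palbociclib libraries. Its ratio was 1.44-fold. The bin on chromosome 5 from 139 to 139.1 Mb at CXXC5, a zinc finger gene, had 43 and 39 against 36 and 46, with equal means. The bin on chromosome 17 from 79.6 to 79.7 Mb at HGS, an endosomal sorting gene, had 41 and 39 against 38 and 41. The bin on chromosome 1 from 155.1 to 155.2 Mb holds MUC1, a mucin of luminal epithelium, and had 33 and 38 against 41 and 43. The other bins of the 12 lay at GRIN1, DVL1, RHOT2, P4HB and PYGO2, with counts from 34 to 60. Of the 12, 7 had both palbociclib counts above both activin counts, 0 had both below, and 5 overlapped. Over all bins with a summit 17.7% were higher and 3.19% lower, and over all dense bins 39.2% and 5.58%. By share of the list, 1 of the 12 was higher in both palbociclib libraries, 6 were lower (at TUBB4B, HGS, DVL1, CXXC5, RHOT2 and P4HB) and 5 overlapped. By share, 14.2% of all bins with a summit were higher and 22.7% lower, against 13.9% and 34.1% of dense bins. In the 21 bins with a lowest count of 30 or more, which include these 12, the values were 4.76% and 71.4%.

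**Figure D1:**
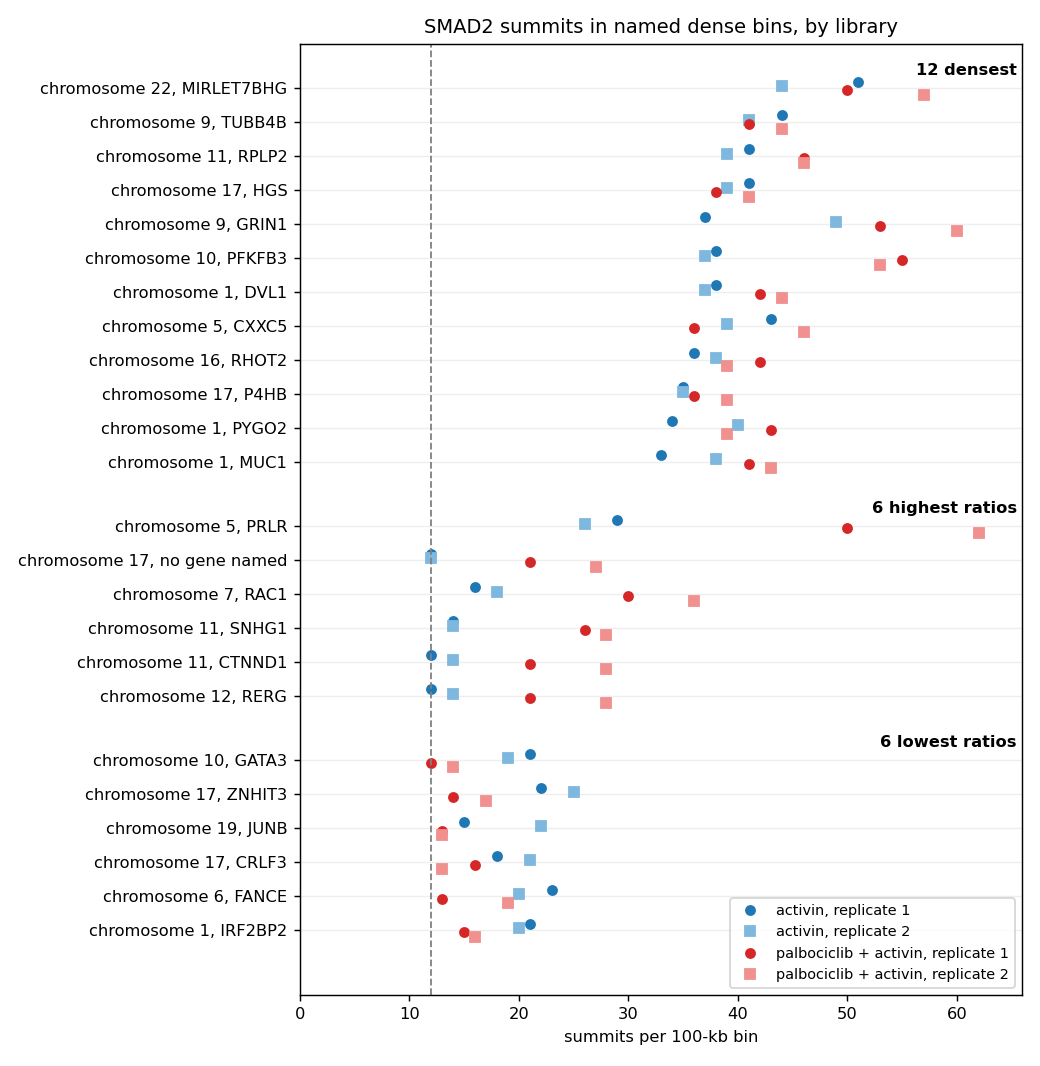
Summits per 100-kb bin (horizontal axis) in each of the 4 libraries for the 12 densest bins and for the 6 bins with the highest and the 6 with the lowest palbociclib to activin ratio; each point is 1 library, 1 gene names each bin, and the dashed line marks the minimum of 12. In the MIRLET7BHG bin the treatments overlap (51 and 44 against 50 and 57), in the PRLR bin they stand apart (29 and 26 against 50 and 62), and in the GATA3 bin they stand apart the other way (21 and 19 against 12 and 14).

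The rule has a sharp edge. Of the dense bins, 104 had a lowest count of exactly 12, and 116 bins missed the rule with a lowest count of 11. Just inside lay chromosome 11 from 63.3 to 63.4 Mb, with 12 and 13 activin summits and 12 and 12 palbociclib summits. Another bin inside was at 72.4 to 72.5 Mb of chromosome 17, with 12 and 12 against 12 and 13. Just outside lay chromosome 7 from 75.6 to 75.7 Mb, with 16 and 11 against 25 and 31. So did the stretch at 50.7 to 50.8 Mb of chromosome 22, with 11 and 25 against 17 and 26. The inside bins shown were picked for the lowest totals at a lowest count of 12, and the outside bins for the highest totals at 11. At these extremes, bins just outside could thus hold more summits in all than bins just inside.

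The share of each list that lay in dense bins differed little between treatments. The share was 23% (95% exact Clopper-Pearson interval 22.6 to 23.4) and 23.2% (22.8 to 23.5) in the activin libraries. In the palbociclib libraries it was 21.3% (21.0 to 21.6) and 22.3% (22 to 22.6). Intervals cover counting error alone. Both palbociclib shares lay below both activin shares, and the means were 23.1% ± 0.1 and 21.8% ± 0.7 (SD, n = 2 each), a difference of -1.27 percentage points. The bins were chosen on these same counts, so no test is given. For any measure, an exact permutation test of 2 against 2 libraries cannot give a p below 0.33. By number, the palbociclib excess was smaller in dense bins than over the whole lists. A dense bin held a mean of 19.1 ± 0.8 activin summits and 21.8 ± 1.3 palbociclib summits (SD over 2 libraries), a ratio of 1.14-fold. Outside dense bins the ratio was 1.23-fold, and over all autosomal summits it was 1.21-fold.

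The rule itself can move this ratio, because the bin must reach 12 in the shorter activin lists as well. The lowest count was in an activin list in 419 dense bins and in a palbociclib list in 129. Bins were therefore also chosen on the replicate 1 libraries and counted in the replicate 2 libraries. The 711 bins so chosen held 13202 activin and 15463 palbociclib summits of replicate 2, a ratio of 1.17-fold against 1.21-fold outside them. The 818 bins chosen on replicate 2 held 13509 and 15684 summits of replicate 1, or 1.16-fold against 1.24-fold outside. On the log2 scale, the ratio inside relative to outside was -0.11 with the bins chosen on all libraries, and -0.05 and -0.10 in the libraries not used for the choice, where the first value is less than 50% of that on all libraries. With 1 library per treatment in each count, these held-out values have no test.

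The ratio also differed along the scale of density. Bins were grouped by their lowest count over the 4 libraries. The ratio of summed counts was 1.18-fold at a lowest count of 9 to 11, 1.16-fold at 12 to 15, 1.16-fold at 16 to 19, 1.13-fold at 20 to 29 and 1.06-fold in the 21 bins with 30 or more. Over the 4 pairs of 1 palbociclib and 1 activin library, the ratio ranged from 1.08 to 1.24 at 12 to 15 and from 1.02 to 1.11 at 30 or more. Classes made from the counts carry the same effect of choice as the rule. The classes were not tested against each other.

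**Figure D2:**
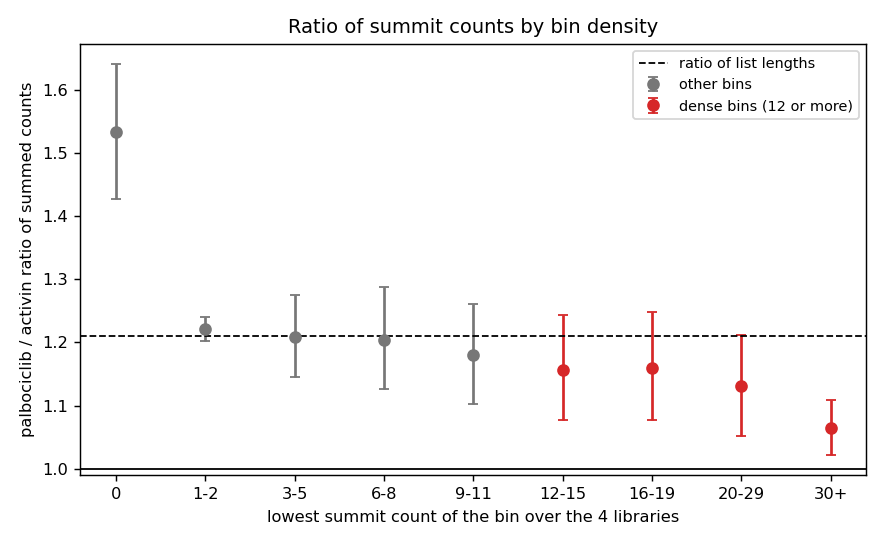
Ratio of summed palbociclib to summed activin summit counts (vertical axis) in bins grouped by their lowest count over the 4 libraries (horizontal axis); points are ratios of group means, whiskers span the 4 pairs of 1 palbociclib and 1 activin library, and the dashed line is the ratio of list lengths (1.21). The ratio is 1.16 in dense bins of 12 to 15 and 1.06 in the 21 bins with 30 or more.

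Single bins ranged widely around the summed ratio. The log2 ratio of a dense bin had a median of 0.18, with quartiles of 0.00 and 0.35, and ranged from -0.62 to 1.03. Its SD over bins was 0.25, and the log2 ratio between replicates had an SD of 0.26 for activin and 0.27 for palbociclib. The first is a ratio of means over 2 libraries and the others are ratios of single libraries, so these SDs are not on the same footing. By count, 246 dense bins (39.2%) had both palbociclib libraries above both activin libraries. The background is 17.7% of all bins with a summit and 37% of the 1308 bins with a lowest count of 6 to 11. Both palbociclib libraries were lower in 35 dense bins (5.58%), against 3.19% of all bins and 4.51% of the bins with 6 to 11. After division by list length, 87 dense bins (13.9%) had a higher share in both palbociclib libraries, against 14.2% of all bins and 18.5% of the bins with 6 to 11. A lower share in both was found in 214 (34.1%), against 22.7% of all bins and 22.6% of the bins with 6 to 11. These counts depend on the libraries and list lengths. With bins chosen anew, 396 were higher by count without activin replicate 2, 401 without palbociclib replicate 1, and 43 with all lists cut to equal length. By share, the 87 became 161 or 162 when 1 activin library was left out (replicate 1 or 2), and 188 or 141 when the library left out was palbociclib replicate 1 or 2.

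**Figure D3:**
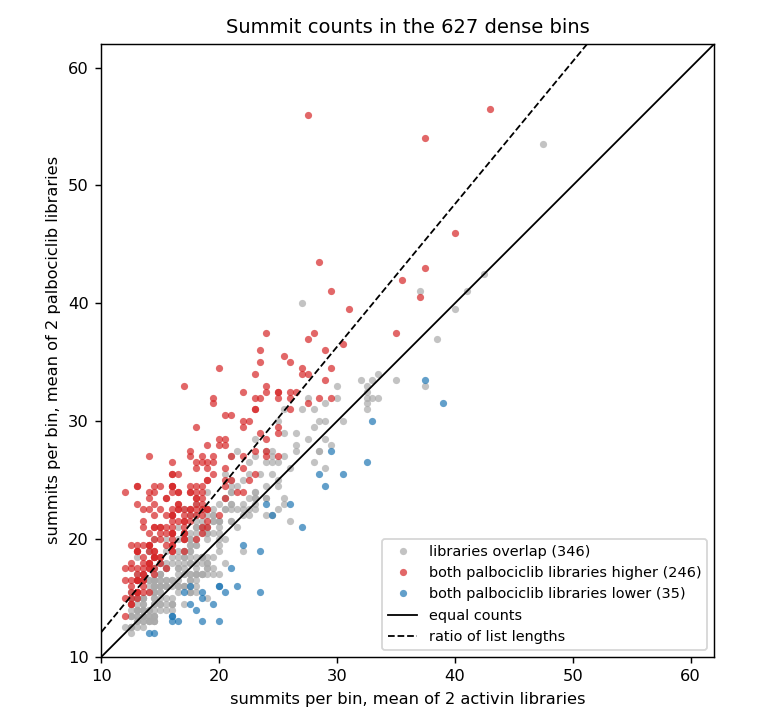
Mean summit count per dense bin over the 2 activin libraries (horizontal axis) and over the 2 palbociclib libraries (vertical axis), 1 point for each of 627 bins; both axes start at 10, the solid line marks equal counts and the dashed line the ratio of list lengths (1.21). Red points (246) have both palbociclib libraries above both activin libraries, and blue points (35) have both below.

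The 6 bins with the highest ratio were led by PRLR, on chromosome 5 from 35.1 to 35.2 Mb. It held 29 and 26 activin summits and 50 and 62 palbociclib summits, a ratio of 2.04-fold. The groups did not overlap (SD 2.1 and 8.5 summits), which picking the bin for its ratio favours. By number, most of the difference lay among weak summits, which were also most of the bin's summits in every library. Both palbociclib counts lay above both activin counts in the upper 50% of scores as well, so the excess was not particular to weak summits. In the lower 50% of scores of their list the PRLR bin had 22 and 20 activin summits and 39 and 46 palbociclib summits. In the upper 50% it had 7 and 6 against 11 and 16, and no library had a summit there in its top 10%. These bins were picked for their ratio, so no test is given.

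Chromosome 7 from 6.4 to 6.5 Mb holds the small GTPase gene RAC1 and DAGLB, and had 16 and 18 against 30 and 36. Chromosome 11 from 62.6 to 62.7 Mb holds SNHG1, a host of small nucleolar RNAs, and the amino acid transporter gene SLC3A2, and had 14 and 14 against 26 and 28. One of the strongest summits of every list lies there, at ranks 1 and 3 with activin alone and at ranks 2 and 3 after palbociclib. There the upper 50% of scores held 8 and 8 summits against 8 and 11, and the lower 50% held 6 and 6 against 18 and 17. Chromosome 11 from 57.5 to 57.6 Mb at CTNND1, the p120 catenin gene, and chromosome 12 from 15.2 to 15.3 Mb at RERG, an estrogen-regulated growth inhibitor, both had 12 and 14 against 21 and 28. Chromosome 17 from 29.9 to 30 Mb, for which no gene is named, had 12 and 12 against 21 and 27. In all 6 bins both palbociclib counts exceeded both activin counts, which picking them for their ratio favours.

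The lowest ratio was at GATA3, on chromosome 10 from 8.1 to 8.2 Mb. It held 21 and 19 activin summits and 12 and 14 palbociclib summits, a ratio of 0.65-fold. The upper 50% of scores held 12 and 10 against 7 and 9, and the lower 50% held 9 and 9 against 5 and 5. In the top 10% of their list it had 1 and 2 activin summits and 1 and 1 palbociclib summits. The median score percentile of its summits was 64.2, where the upper quartile over dense bins was 54.0.

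Chromosome 19 from 12.9 to 13 Mb holds JUNB, an AP-1 subunit, and KLF1, and had 15 and 22 against 13 and 13. Its best ranks were 200 and 141 with activin alone and 199 and 97 after palbociclib. Chromosome 6 from 35.4 to 35.5 Mb holds FANCE and TEAD3, a DNA-binding partner of YAP, and had 23 and 20 against 13 and 19. Chromosome 1 from 234.7 to 234.8 Mb at IRF2BP2, a transcriptional co-regulator, had 21 and 20 against 15 and 16. On chromosome 17, the bin from 34.8 to 34.9 Mb at ZNHIT3 and MYO19 had 22 and 25 against 14 and 17, and the bin from 29.1 to 29.2 Mb at CRLF3 and ATAD5 had 18 and 21 against 16 and 13. In these 6 bins both palbociclib counts were below both activin counts, which picking them for their ratio favours. The same held in each of them for the lower 50% of scores, with 8 and 12 against 5 and 4 at JUNB and 13 and 11 against 3 and 10 at TEAD3. For the upper 50% it held at GATA3 and IRF2BP2 only. In that part the treatments overlapped at JUNB (7 and 10 against 8 and 9), TEAD3 (10 and 9 against 10 and 9), ZNHIT3 and CRLF3.

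Score values were not used by the rule, and the median summit in a dense bin ranked below the median summit elsewhere. The rule counted summits of any score, however, and with a score of at least 5 only 321 bins met it. Rank inside against outside is therefore not fully independent of the choice, and it was not checked under other settings. The score, read here as the −log10 q of the peak, was ranked within its own list. The median percentile of summits in dense bins was 45.4 and 48.6 in the activin libraries, against 51.1 and 50.7 outside. In the palbociclib libraries it was 48.2 and 48.5, against 50.7 and 50.4. Summits in dense bins thus ranked lower in 4 of 4 libraries. The group means inside, 47 ± 2.3 and 48.4 ± 0.2 (SD, n = 2 each), differed by 1.38 percentile points, with an exact permutation p of 1. Without activin replicate 1 that difference was 0.13, and without activin replicate 2 it was 3.03.

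The share of summits in dense bins varied with score. Each list was divided by rank into 10 classes of about equal size, with ties kept together. Of the strongest class, 21.0% and 21.1% lay in dense bins in the activin libraries. In the palbociclib libraries this was 19.9% and 20.5%. Of the weakest class the share was 26.9% and 22.5% with activin and 24.0% and 23.2% with palbociclib. At the very top the share was higher, where dense bins held 21.3% to 23.2% of all summits. Dense bins held 32 of the 100 highest-ranked summits of activin replicate 1, 35 of 101 (with a tie) in activin replicate 2, and 39 and 38 of 100 in the palbociclib libraries. Of the 1000 highest they held 276 and 281 with activin and 277 and 278 with palbociclib.

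**Figure D4:**
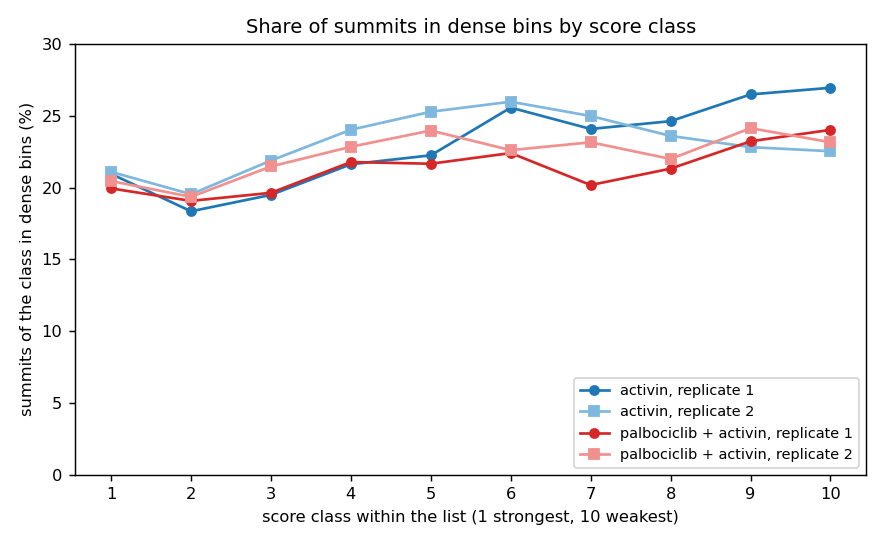
Percentage of summits that lie in dense bins (vertical axis, from 0) by score class within the list (horizontal axis, 1 strongest), 1 line per library. The 4 lines lie between 19.9% and 21.1% in the strongest class and between 22.5% and 26.9% in the weakest.

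Strong summits were found in many dense bins. In 471 of 627 (75.1%) every library had at least 1 summit in its top 10%, and in 48 bins no library had one. The same held for 54.1% of the bins with a lowest count of 6 to 11 and for 17.4% of all bins with a summit, which hold fewer summits each. The TUBB4B bin had its highest summit at 140135753, 140135753, 140135739 and 140135765 in activin replicates 1 and 2 and palbociclib replicates 1 and 2, at ranks 197, 165, 133 and 91. The PFKFB3 bin had its highest at 6244928, 6244928, 6244927 and 6244921, at ranks 59, 86, 30 and 28, so that the 4 positions spanned 7 bp. In the P4HB and ARHGDIA bin on chromosome 17 from 79.8 to 79.9 Mb the ranks were 98, 110, 144 and 243. By contrast the DVL1 bin on chromosome 1 had no summit in the top 10% of any list. Its best ranks were 8723, 7862, 8352 and 7253, and its highest summits lay up to 56979 bp apart. The MIRLET7BHG bin, the densest of all, had 1 summit in the top 10% of each list, from 46465786 to 46465876, and 50.5% of its 202 summits lay in the lower 50% of scores.

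Positions in dense bins recurred less exactly between libraries than positions elsewhere. A summit was counted as found again if another library had a summit within 200 bp. Over the 12 ordered pairs of libraries, 50.8% ± 3.5 of summits in dense bins were found again, against 57.0% ± 5.2 outside (SD over pairs, which share libraries). The value inside was lower in 12 of 12 pairs, by 2.48 to 11.4 percentage points. Within 100 bp the values were 37.1% and 47.3%, again lower in 12 of 12 pairs. At wider distances the order turned: within 500 bp they were 69.6% and 67.6%, higher inside in 9 pairs and lower in 3, and within 1000 bp 83.7% and 75.7%, higher inside in 12 of 12. Chance matches among closely spaced summits were not measured.

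The difference lay in the upper score classes. In the strongest score class, 91.7% ± 0.9 of summits in dense bins and 95.1% ± 0.4 of those outside were found again within 200 bp. In the third class the values were 71.2% ± 3.5 and 86.0% ± 1.9, a difference of -14.8 percentage points, and all 12 pairs were lower inside. In the seventh class they were 36.0% ± 6.5 and 36.5% ± 8.7. In the weakest class the order was the other way, at 26.8% ± 7.0 and 21.2% ± 6.0. Between libraries of 1 treatment, 52.5% of activin and 52.4% of palbociclib summits in dense bins were found again, against 57.7% and 58.6% outside. Across treatments, 53.3% of activin summits in dense bins were found in palbociclib lists, against 62.3% outside. Of palbociclib summits 46.6% were found in the shorter activin lists, against 50.6% outside.

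**Figure D5:**
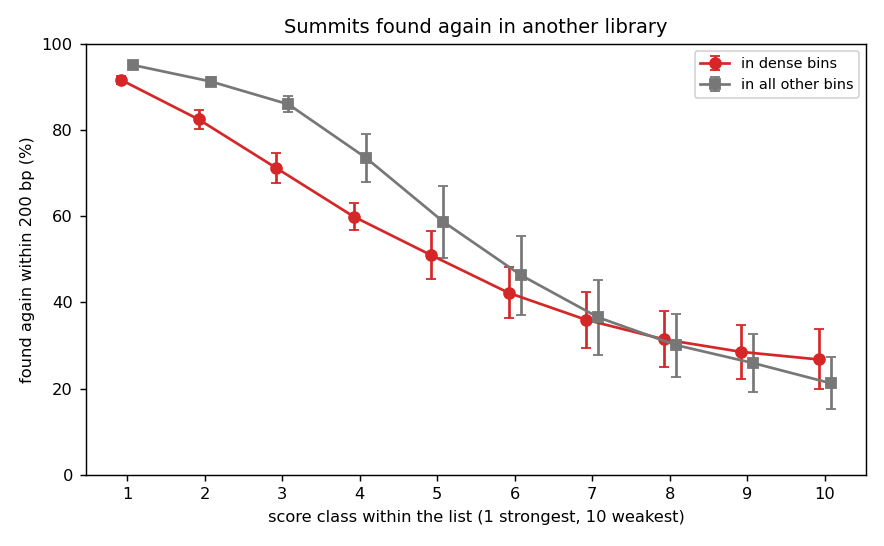
Percentage of summits with a summit of another library within 200 bp (vertical axis) by score class (horizontal axis, 1 strongest), in dense bins (red) and in all other bins (grey); points are means and whiskers SDs over 12 ordered pairs of libraries. The widest gap is in the third class, at 71.2% in dense bins and 86.0% elsewhere.

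Summits in dense bins were closely but unevenly spaced, which the rule in part fixes. The median distance to the next summit of the same list was 1388 and 1390 bp in the activin libraries and 1419 and 1266 bp in the palbociclib libraries. In bins with a lowest count of 6 to 11 it was 1923 and 1806 bp, and 1764 and 1524 bp. In dense bins 8.81% to 12.4% of these distances were at most 500 bp, and 8.58% to 11.2% were over 10000 bp. The shortest was 69 bp and the longest 75644 bp. Of the 10 stretches of 10 kb in a bin, a median of 6 held a summit in each library, and the fullest stretch held a median of 31.6% to 33.3% of the bin's summits. A summit in every stretch was found in 5 to 12 bins per library, and in 27 to 43 bins over 50% of the summits lay in 1 stretch. The typical dense bin was thus a few clusters with gaps, not an even cover.

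Chaining summits of the 4 lists that lay at most 200 bp apart gave 25809 regions in dense bins and 87088 outside. A summit in every library was found in 4309 (16.7%) of the regions inside and 18591 (21.3%) outside. A dense bin held a median of 7 such shared regions, from 1 to 15, and the MIRLET7BHG bin held 15. Regions in both palbociclib libraries and neither activin library made up 5.27% inside and 5.29% outside. Regions in both activin libraries and neither palbociclib library made up 3.31% inside and 1.92% outside. In counts, dense bins had 1360 of the former and 853 of the latter, a palbociclib side of 61.5%, against 73.4% outside. The PRLR bin had 14 palbociclib regions and 2 activin regions of this kind, and the GATA3 bin had 1 and 4. The regions are built from the same summits that chose the dense bins and picked the PRLR and GATA3 bins. These contrasts are therefore a description that the choice can move.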

How the data were processed

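Chromatin of T47D cells was precipitated with an antibody to SMAD2 and made into amplified Ion Torrent libraries, per the labels' protocols. The tools named were MACS2 2.0.9, Bowtie 1.1.0 and Picard, with the build hg19, per the submitters' processing notes. Their order, filters and settings were not given in these sources. The authors deposited 1 summit list per library with a score per summit, read here as −log10 q: the lowest value is 1.31, and a q of 0.05 is 1.30. Scores were ranked within a list and not compared between lists. There is a separate list for each library and none for pooled replicates among the files used.

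Summits on chromosomes 1 to 22 were counted in 100-kb bins from 1-based positions, with Python 3.11.15, numpy 2.4.6, pandas 2.3.3 and scipy 1.17.1 (plots: matplotlib 3.10.9). Groups were taken from the labels. The group difference in score percentile used an exact two-sided permutation test over 4 libraries. The same test was planned for shares and counts, but is not reported for them because they chose the bins. The counting was tested on simulated lists with planted bins. Planted bins lay well above the minimum and all others below it, so finding them was certain and the edge of the rule was not tested. The members, lists and tests were chosen with earlier results of these data known. The named bins are the 12 with the highest lowest count, the 6 with the highest and the 6 with the lowest ratio, the longest runs, and bins at the edge of the rule. Gene names come from general knowledge; all 45 matched a symbol on the same chromosome in a RefSeq table on GRCh38.p14, which gave no positions. Alternatives covered the minimum, the bins, score limits, equal list lengths, joined summits, chromosome X, a replicate block and the omission of each library. The replicate block averaged the differences between libraries with the same replicate number. The held-out shares and relative ratios, and the choice of bins by mean share of the list, were added after seeing the data. Gene lists and motifs at summits, planned for hg19, were not run. The depth of each list is unknown beyond its number of summits, which limits the precision of every count.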

Additional observations from a re-analysis of the deposited data

Results flagged for a closer look

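Chromosome X lay outside the rule for dense bins, and 9 of its bins would have met it. Their lowest counts over the 4 libraries, which the rule sets at 12 or more, were 17 and 12 in the neighbouring bins from 9.9 and 10 Mb, 15 and 13 from 39.9 and 40 Mb, 14 from 47 Mb, 12 and 19 from 48.9 and 49 Mb, and 14 and 14 from 153.6 and 153.7 Mb. The bin from 10 Mb held 12 and 16 activin summits and 24 and 21 palbociclib summits, and the bin from 49 Mb held 19 and 20 against 19 and 20. These are values from the lists, and no control signal was set against them.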

How the results depend on the processing

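With a minimum of 8, 16 and 20 summits there were 1269, 324 and 157 bins in place of 627, both palbociclib libraries were higher by count in 494, 132 and 66 of them (246) and by share in 199, 39 and 19 (87), and 33.4%, 12.5% and 6.59% of the strongest 10% of scores lay inside (20.6%). Bins of 50 kb with 6 summits gave 1509 bins, 471, 207 and 27.5%, and bins of 200 kb with 24 summits gave 230, 114, 28 and 14.0%. A score of at least 5 gave 321 bins, 145, 28 and 13.2%. Counting summits within 1000 bp as 1 gave 210 bins, 83, 19 and 9.68%, and within 500 bp 18.2%. At equal list lengths both counts were 43, the share was 17.3%, and the log2 ratio of 0.19 reversed to -0.075, since this setting takes away the longer palbociclib lists. Bins starting at 50 kb gave 19.2%. The median spacing (1366 bp) was 1439 and 1280 bp with a minimum of 8 and 20, 1276 and 1435 bp with bins of 50 and 200 kb, 1717 bp with a score of at least 5, 1526.5 bp at equal lengths, and 1635 and 2875 bp with summits joined within 500 and 1000 bp. The inside to outside difference in summits found again was -10.2 points within 100 bp and reversed to 2.02 and 7.97 points within 500 and 1000 bp; the cause was not tested. Leaving out each library gave 315 to 401 bins higher by count and 141 to 188 by share, where a group of 1 library separates more easily, and 21.0% to 23.5% of the strongest scores. The lower share (-1.27 points) and the negative relative ratio (-0.11) kept their direction under all 20 alternatives each. Most of these settings chose bins on the same counts by the same kind of rule, and both measures come from those counts. The tally is therefore no independent support. The share difference was -0.63 and -1.29 points in held-out replicates, and -0.87 with bins chosen by mean share, 559 of which were dense bins. With the replicate block the share difference was -1.27, the log2 ratio 0.19 and the relative ratio -0.11. An exact sign-flip test of 2 pairs cannot give a p below 0.5, so this says nothing about stability. Same-numbered libraries did not deviate together (correlation -0.02 over 627 bins), so the numbers gave no sign of pairing. Gene content and motifs were not run for want of hg19 references. Unknown read depth limits every count.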
